A study of Mus musculus with 8 samples.

Results

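Cells that lie against the brain's blood vessels, or that line its ventricles, leave traces of their messenger RNA in preparations of sorted brain endothelium. The genes described here are 32 transcripts that mark such neighbours: 13 of pericytes, 3 of smooth muscle, 9 of fibroblasts and 7 of the choroid plexus. They are listed as known markers of those cells, by no threshold on their values, and are 32 of the 25700 genes in the deposited tables. The list was drawn up with earlier results of these data known, so its shares beside all genes are descriptions. All 32 passed the filter on low counts.

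The data are messenger RNA counts from endothelial cells sorted by flow cytometry out of whole mouse brains at postnatal day 6. In 4 pups the glucose transporter GLUT1 (gene Slc2a1) was deleted in endothelial cells (genotype GLUT1EC-/-, called KO), and 4 pups were wild type (WT); all 8 were C57BL/6, and their cells were lysed straight after sorting without culture. Each library came from 1 pup. The Cre line behind the deletion, the time of its induction and the surface markers of the sort were not given in the sources used here.

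Pericytes are embedded in the basement membrane of capillaries, where endothelial PDGF-B holds them through the receptor PDGFRB and Notch signals maintain them. Smooth muscle cells wrap the arteries and arterioles and contract. Fibroblasts occupy the meninges and the space around larger vessels and secrete collagens. The choroid plexus is an epithelium in the ventricles that makes cerebrospinal fluid and secretes transthyretin, and it stands next to the ciliated ependyma. Some of these markers, such as Igf2, Apod and Aqp1, are made by more than a single one of these cell types.

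Library totals lay between 20858070 and 40833036 counts in KO pups, and between 25886455 and 114007737 counts in WT pups, and the deepest library was that of WT pup 2. Levels are given in CPM, which are counts scaled by TMM to a library total of 1000000. Slc2a1 itself was at 1386 to 1601 CPM in KO pups and at 2237 to 3725 CPM in WT pups (log2 fold change -1.01, SE 0.14; adjusted p = 0.0062, edgeR's quasi-likelihood test with Benjamini-Hochberg adjustment over all genes). The summed level of 12 endothelial markers, led by Cldn5, was 15031 to 16841 CPM in KO pups and 15804 to 16881 CPM in WT pups. Mitochondrial transcripts took 2.04% to 2.48% of all counts in the KO libraries, against 1.66% to 1.89% in the WT libraries. Going by titles, the KO pups shared a cage with WT pup 5 and the other WT pups had another; going by file names, they shared it with WT pup 3. Genotype and cage can therefore hardly be told apart.

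The 32 transcripts did not shift in 1 direction as a whole. At an adjusted p under 0.05, none was higher in KO pups, where 0.276% of the 14154 tested genes were, and 1 was lower, where 0.113% of all tested genes were. The 1 called lower was Apod. The log2 fold changes were positive in 16 and negative in 16, with a median of -0.01 beside 0.00 over all tested genes. In 4 of the 32, Apod, Ttr, Aqp1 and Kcne2, every KO library lay below every WT library, an arrangement that 3.43% of all tested genes showed. The opposite arrangement was found in none of the 32 and in 3.77% of all genes. Kcne2 reached the filter on low counts in 2 KO and 4 WT libraries, so that its place among the 4 rests mainly on WT pups. At an unadjusted p under 0.05 (edgeR's quasi-likelihood test) stood 7 of the 32, or 21.9%, beside 11.1% of all tested genes. They were 5 of the 7 choroid plexus members, 1 of 3 smooth muscle, 1 of 9 fibroblast and 0 of 13 pericyte members. Folr1, which reached the filter in 3 KO and 4 WT libraries, and Kcne2 are among these 5.

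**Figure D1:**
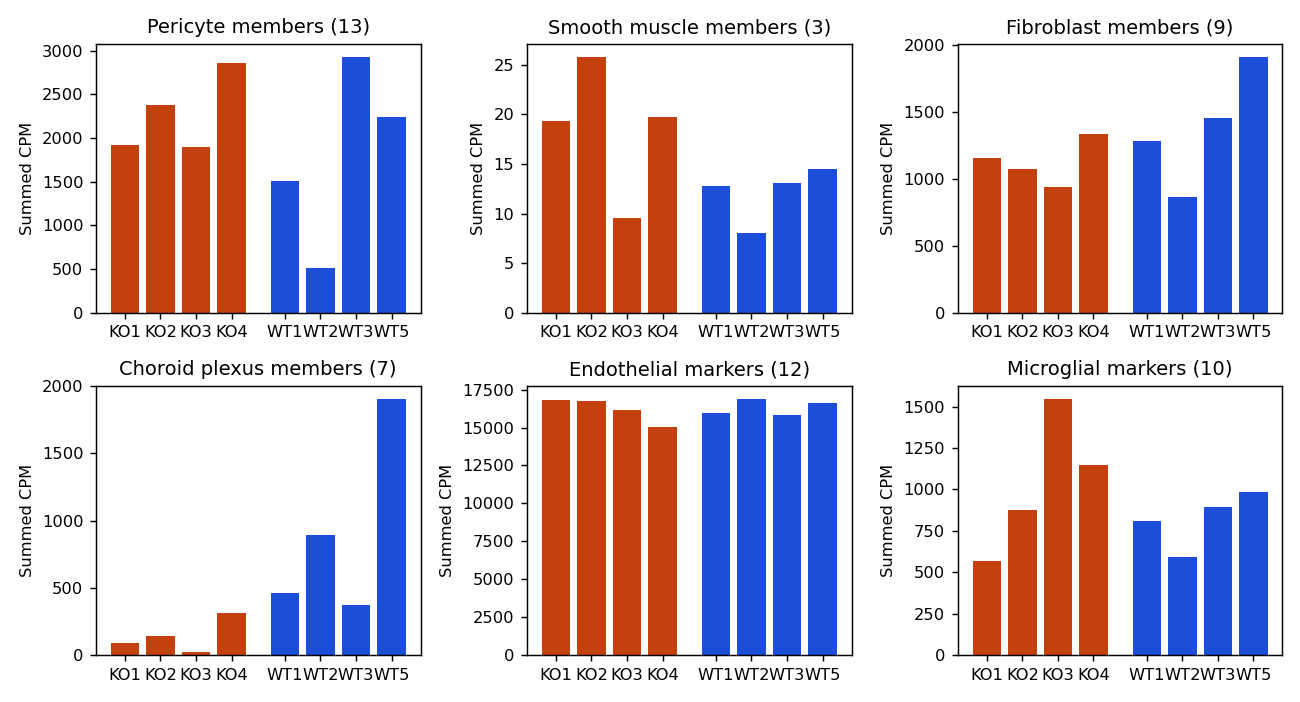
Bars from 0 give the summed level (CPM) of the members of each of the 4 groups, and of endothelial and microglial markers, in every library, KO pups in orange on the left and WT pups in blue on the right, 1 bar per pup and a vertical scale per panel. The pericyte sum is lowest in WT pup 2 at 515 CPM; the choroid plexus sums of the KO pups reach at most 312 CPM, below the lowest WT sum of 373 CPM, while the endothelial sums stay between 15031 and 16881 CPM.

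The pericyte transcripts were all detected in every library, at levels from 0.950 CPM (Cox4i2 in WT pup 2) to 1703 CPM (Rgs5 in KO pup 4). Their summed level was 1921, 2379, 1892 and 2857 CPM in KO pups 1 to 4. It was 1508, 515, 2929 and 2240.1 CPM in WT pups 1, 2, 3 and 5. The KO values lie within a factor of 1.51 of one another, and WT pup 2 lies far below all other libraries. The log2 ratio of the group means was 0.33, and it was 0.02 without WT pup 2 and 0.67 without WT pup 3. In such bulk samples fewer pericytes and less of their RNA per cell cannot be told apart.

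Rgs5, a regulator of G-protein signalling that is among the classical pericyte markers, was the most abundant. Its level was 1100.3, 1385, 1119 and 1703 CPM in KO pups and 795, 268, 1586 and 1071 CPM in WT pups. The groups overlap, with the highest level in KO pup 4 and the lowest in WT pup 2 (log2 fold change 0.51, SE 0.39; adjusted p = 0.686, edgeR's quasi-likelihood test). Per kilobase of transcript, Rgs5 averaged 248 CPM per kb over the 8 libraries. The endothelial adhesion genes Pecam1 and Cdh5 averaged 221 and 377 CPM per kb, and the tight junction gene Cldn5 2208 CPM per kb. Rgs5 does not stand for its group here, as the other pericyte members averaged from 1.35 (Des) to 104 CPM per kb (Vtn).

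Pdgfrb, the receptor through which pericytes are recruited, was at 154, 192, 143 and 208 CPM in KO pups and at 127, 42.7, 241 and 219 CPM in WT pups. Notch3, the Notch receptor of mural cells, was at 76.5, 85.5, 68.3 and 87.6 CPM in KO pups and at 57.4, 19.8, 104 and 90.5 CPM in WT pups. WT pup 2 was lowest for both, and the other 3 WT pups spanned the KO values. The log2 fold changes were 0.15 (SE 0.40) for Pdgfrb and 0.23 (SE 0.37) for Notch3. Of the remaining surface proteins, Cspg4, the NG2 proteoglycan, was at 34.7, 55.6, 47.5 and 56.9 CPM in KO pups and at 50.6, 15.2, 80.05 and 67.9 CPM in WT pups. Anpep, the aminopeptidase CD13, was at 31.1, 28.999, 21.9 and 37.5 CPM in KO pups and at 19.95, 11.02, 42.03 and 36.7 CPM in WT pups. Neither separated the groups.

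Kcnj8 and Abcc9 encode the pore and the sulfonylurea receptor subunit of the ATP-sensitive potassium channel of mural cells. Kcnj8 was at 53.8, 58.5, 45.6 and 72.7 CPM in KO pups and at 45.9, 19.1, 95.1 and 80.7 CPM in WT pups. Abcc9 was at 153, 164, 128 and 214 CPM in KO pups and at 132, 50.9, 246 and 254 CPM in WT pups. Both log2 fold changes were -0.05 (SE 0.38 for Kcnj8 and 0.39 for Abcc9). Although either level varied between libraries about as much as the rest of the group, the ratio of Abcc9 to Kcnj8 counts hardly did. It was 2.84, 2.80, 2.803 and 2.95 in KO pups and 2.88, 2.67, 2.58 and 3.14 in WT pups, a factor of 1.22 between the highest and the lowest. The 2 genes are neighbours on the minus strand of chromosome 6 (GRCm38), Kcnj8 at chr6:142564837-142571614 and Abcc9 at chr6:142587862-142702315, with RefSeq starts 130.66 kb apart. The ratio of Vtn to Pdgfrb counts varied nearly as little, by a factor of 1.27, so that the constancy is no trait of this pair alone. The 250 bases before the RefSeq start of each are shown because the pair encodes the subunits of a single channel. They run 5′ to 3′ and come from RefSeq on GRCm38.p6, where the Abcc9 start lies 41 bases inside the gene as given above (Kcnj8 chr6:142571615-142571864 and Abcc9 chr6:142702275-142702524, both minus strand). Capitals mark TGGGAA, the core of the site bound by RBPJ, the DNA-binding partner of Notch, or its reverse complement TTCCCA.
Kcnj8: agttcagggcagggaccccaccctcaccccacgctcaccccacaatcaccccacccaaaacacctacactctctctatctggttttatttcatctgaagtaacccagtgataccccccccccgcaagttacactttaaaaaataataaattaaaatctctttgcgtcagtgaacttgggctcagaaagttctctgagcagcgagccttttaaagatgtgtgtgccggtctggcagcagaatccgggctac
Abcc9: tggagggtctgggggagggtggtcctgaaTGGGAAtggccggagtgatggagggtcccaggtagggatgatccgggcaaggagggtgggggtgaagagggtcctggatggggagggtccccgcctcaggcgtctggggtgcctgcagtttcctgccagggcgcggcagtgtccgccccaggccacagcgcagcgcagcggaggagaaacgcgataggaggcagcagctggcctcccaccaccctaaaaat
The letters TGGGAA were found once in the Abcc9 window, from base -221 counted from the RefSeq start, and not in that of Kcnj8. Of the 32 genes, 19 have an entry in the RefSeq table, and 6 of these hold the letters on either strand, against 24.1% of the 27025 genes in it. A match of 6 letters is a description and does not show a bound site.

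Vtn, the secreted adhesion protein vitronectin that brain pericytes release, was at 178, 252, 198 and 288 CPM in KO pups and at 169, 54.95, 306 and 238 CPM in WT pups. Atp13a5, a P5-type ATPase that marks brain pericytes, was at 93.6, 109, 78.3 and 124 CPM in KO pups and at 67.9, 22.01, 136 and 118 CPM in WT pups. The log2 fold changes of 0.26 (SE 0.39) for Vtn and 0.24 (SE 0.41) for Atp13a5 were smaller than their errors. The 3 genes tied to mitochondria or low oxygen followed. Ndufa4l2, a mitochondrial protein induced in hypoxia whose exons share 32 bases with Shmt2 on the other strand, was at 16.2, 17.7, 15.03 and 25.5 CPM in KO pups and at 18.02, 4.43, 35.6 and 30.6 CPM in WT pups. Higd1b, of the hypoxia-inducible domain family, was at 20.7, 18.7, 18.1 and 24.8 CPM in KO pups and at 14.4, 3.94, 36.2 and 21.5 CPM in WT pups. Cox4i2, an alternative subunit of cytochrome c oxidase, was at 6.47, 6.21, 4.698 and 7.73 CPM in KO pups and at 6.96, 0.9503, 11.6 and 7.72 CPM in WT pups. Their groups overlap, and WT pup 3 was highest for all 3. Des, the intermediate filament desmin, was at 3.31, 6.63, 4.33 and 6.51 CPM in KO pups and at 3.46, 1.72, 9.65 and 5.002 CPM in WT pups.

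**Figure D2:**
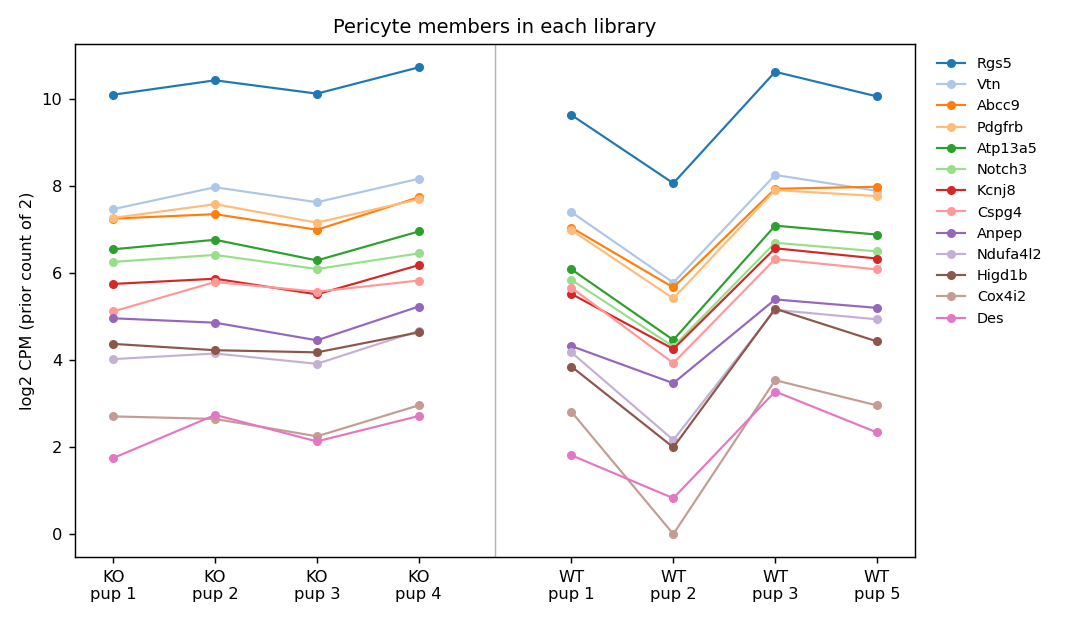
Log2 CPM (with a prior count of 2) of the 13 pericyte transcripts in every library, KO pups left and WT pups right, 1 point per pup; lines join the points of a gene within a genotype for reading only. WT pup 2 is the lowest point of all 13 lines.

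The pericyte transcripts thus moved together between pups rather than between genotypes. WT pup 2 was the lowest library for 13 of 13, where it was lowest for 12.9% of all tested genes, and WT pup 3 was the highest for 11, with Rgs5 highest in KO pup 4 and Abcc9 in WT pup 5. None of the 13 passed the test, and 8 had a positive and 5 a negative log2 fold change, with standard errors of 0.34 to 0.53. When each gene was set against the mean of the other 12 in the same library, its spread over the 8 libraries became smaller for 13 of 13: the median SD was 0.23 on the log2 scale, against 0.79 for the level itself. It was smallest for Pdgfrb, at 0.08, and largest for Cox4i2, at 0.39. These genes share their libraries, so the agreement is a description.

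On that relative scale the genotypes did not overlap for 1 of the 13, Rgs5. For the levels themselves, 3.77% of all tested genes had every KO pup above every WT pup and 3.43% every KO pup below. The share on the relative scale was not computed. Rgs5 stood 4.81 to 4.96 log2 units above the other pericyte genes in KO pups and 4.29 to 4.54 above them in WT pups. The difference was 0.44 (the mean in KO pups minus that in WT pups). The ratio of Rgs5 to Pdgfrb counts was 7.13, 7.21, 7.82 and 8.19 in KO pups and 6.27, 6.28, 6.59 and 4.898 in WT pups. It averaged 7.59 ± 0.507 in KO pups and 6.01 ± 0.757 in WT pups (SD, n = 4 each), and every KO pup lay above every WT pup. No test was run on this ratio, which was singled out after its values were seen.

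**Figure D3:**
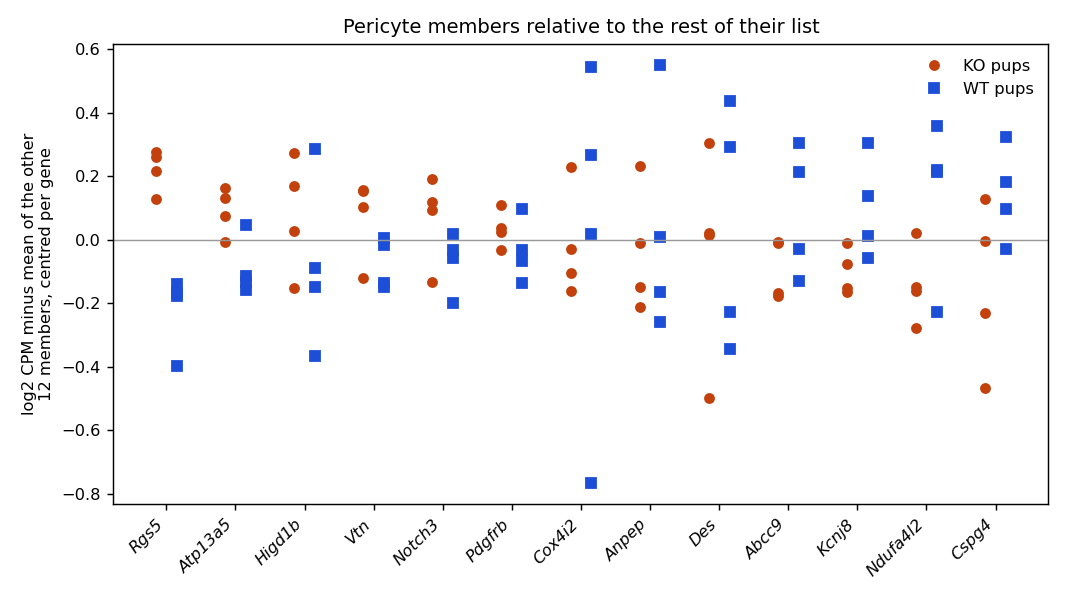
Log2 CPM of each pericyte transcript minus the mean of the other 12 in the same library, centred on 0 for each gene, with KO pups as orange circles left and WT pups as blue squares right of each gene, 1 point per pup. Rgs5 is the only gene whose genotypes do not overlap; before centring its KO pups were at 4.81 to 4.96, above the 4.29 to 4.54 of WT pups.

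Smooth muscle transcripts were scarce in both genotypes. Their sum was 19.3, 25.8, 9.599 and 19.8 CPM in KO pups and 12.8, 8.06, 13.03 and 14.5 CPM in WT pups, and the ranges overlap. Acta2, smooth muscle actin, was at 14.05, 12.1, 4.57 and 10.5 CPM in KO pups and at 6.53, 3.86, 6.31 and 7.68 CPM in WT pups. KO pups 1, 2 and 4 lay above all WT pups, and KO pup 3 lay among them. The log2 fold change of 0.76 (SE 0.32) had an unadjusted p of 0.0384 and did not pass (adjusted p = 0.408, edgeR's quasi-likelihood test). Tagln, the actin-binding protein transgelin, was at 2.59, 8.24, 3.27 and 5.99 CPM in KO pups and at 4.15, 2.45, 4.12 and 3.43 CPM in WT pups. Its exons overlap those of Pcsk7 on the other strand over 108 bases, and since the strand setting of the counting is not given in the sources used here, reads of the pair may not be separated there. Myh11, the smooth muscle myosin heavy chain, ranged over 1.76 to 5.51 CPM in KO pups and 1.75 to 3.35 CPM in WT pups. WT pup 2 was the lowest library for all 3, as for the pericyte genes.

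Among the fibroblast transcripts 1 passed the test. Apod, the secreted lipid carrier apolipoprotein D, was lower in KO pups. Its level was 458, 386, 406 and 469.9 CPM in KO pups and 666, 541, 649 and 770.2 CPM in WT pups. All 4 KO pups lie below all 4 WT pups, with means of 429.9 ± 40.4 CPM in KO pups and 656.5 ± 94.0 CPM in WT pups (SD, n = 4 each). The log2 fold change was -0.61 (SE 0.11, 95% interval -0.85 to -0.37), with an adjusted p of 0.0427 by edgeR's quasi-likelihood test. The two-sided exact permutation test gave p = 0.0286, the smallest that 4 against 4 allows. The call rests on the full set of pups. It held without WT pup 2, and it was lost without any 1 of the others, at an adjusted p of 0.0525 without KO pup 1, 0.132 without KO pup 2, 0.131 without KO pup 3, 0.063 without KO pup 4, 0.0974 without WT pup 1, 0.0742 without WT pup 3 and 0.0978 without WT pup 5. With cage in the fit the log2 fold change was -0.84 by the titles (adjusted p = 0.1000) and -0.59 by the file names (adjusted p = 0.563). Between the KO pups and WT pup 5 alone, cage mates by the titles, it was -0.84 (adjusted p = 0.0561), a fit in which the lone WT pup is assumed to vary like the KO pups.

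Apod lies at chr16:31296192-31314808 on the minus strand (GRCm38). Its 250 bases before the start (chr16:31314809-31315058, minus strand, RefSeq, GRCm38.p6) are printed as those of the only 1 of the 32 genes that passed the test. Capitals would again mark TGGGAA or TTCCCA, of which the window holds none.
Apod: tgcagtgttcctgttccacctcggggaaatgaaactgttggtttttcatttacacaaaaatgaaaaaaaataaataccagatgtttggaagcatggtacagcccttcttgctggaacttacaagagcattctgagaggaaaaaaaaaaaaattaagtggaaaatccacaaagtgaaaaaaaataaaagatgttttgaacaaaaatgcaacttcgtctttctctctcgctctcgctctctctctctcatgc

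The structural genes of fibroblasts did not separate the genotypes as Apod did. Col1a1 and Col1a2 encode the chains of type I collagen. Col1a1 was at 16.7, 14.3, 5.07 and 28.7 CPM in KO pups and at 19.5, 9.74, 12.5 and 22.4 CPM in WT pups (log2 fold change 0.03, SE 0.42). Col1a2 was at 66.6, 60.6, 35.9 and 101 CPM in KO pups and at 51.7, 28.4, 67.3 and 88.6 CPM in WT pups (0.17, SE 0.34). Among the KO pups both were lowest in pup 3 and highest in pup 4, and the groups overlap. Col3a1, type III collagen, was at 54.3, 67.4, 51.3 and 82.9 CPM in KO pups and at 67.6, 52.3, 89.6 and 103 CPM in WT pups (-0.28, SE 0.21). Dcn, the collagen-binding proteoglycan decorin, was at 10.5, 9.197, 2.04 and 26.3 CPM in KO pups and at 14.9, 11.4, 14.5 and 21.98 CPM in WT pups (-0.37, SE 0.53). None of these passed the test. KO pup 3 was the lowest library for Dcn, Lum, Col1a1 and Col3a1, 4 of the 9 fibroblast genes, and for 7.71% of all tested genes. WT pup 2 was the lowest for Igf2, Col1a2, Slc6a13 and Aldh1a2. The ratio of Apod to Dcn counts reached 199 in KO pup 3, where Dcn was at its lowest and Apod lay within the range of the other KO pups, against 17.9 to 43.4 in the other KO pups and 35.1 to 47.4 in WT pups. Relative to the other 8 fibroblast genes, the spread of Apod over libraries was larger (SD 0.54, log2 scale) than that of its level (SD 0.36).

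Igf2, the growth factor that fibroblasts and the choroid plexus secrete in the young brain, was the other abundant member. It was at 539.5, 522, 436 and 621 CPM in KO pups and at 457, 215, 616 and 898 CPM in WT pups. WT pups 2 and 5 bracketed all other libraries, and the groups overlap (log2 fold change -0.04, SE 0.32). Its level is uncertain, because its exons overlap those of the predicted gene Gm49394 on the same strand over 3596 bases, and the counts of Gm49394 were 98.0% to 98.9% of those of Igf2 in the 8 libraries. The remaining fibroblast genes had lower levels. Lum, the proteoglycan lumican, ranged over 0.327 to 1.69 CPM in KO pups and 0.623 to 1.93 CPM in WT pups. Slc6a13, a GABA and taurine carrier of meningeal fibroblasts, ranged over 2.08 to 7.58 CPM in KO pups and 2.03 to 4.08 CPM in WT pups. Aldh1a2, which makes retinoic acid in the meninges, ranged over 1.88 to 5.14 CPM in KO pups and 1.63 to 4.61 CPM in WT pups. The summed level of the 9 was 1153, 1074, 940.1 and 1339 CPM in KO pups and 1285, 862, 1456 and 1913 CPM in WT pups, and Apod and Igf2 made up most of it.

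Of the 4 groups, the choroid plexus transcripts showed the widest differences between pups. Their sum was 91.9, 137, 22.3 and 312 CPM in KO pups and 458, 891, 373 and 1905 CPM in WT pups. Every KO pup lies below every WT pup. The KO sums also differ by a factor of 14 among themselves. The log2 ratio of the group means was -2.69; it was -2.03 without WT pup 5 and -3.44 without KO pup 4. Ttr alone gave 10.5 of the 22.3 CPM in KO pup 3 and most of the sum in every other library, and the 6 genes without it gave a log2 ratio of -1.03.

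Ttr, transthyretin, the thyroid hormone carrier of cerebrospinal fluid, was at 74.99, 121, 10.5 and 276 CPM in KO pups. It was at 433, 855, 352 and 1822 CPM in WT pups. The groups do not overlap, yet the spread within each is so wide that the difference did not pass: the log2 fold change was -2.84 (SE 0.79, 95% interval -4.57 to -1.11), the unadjusted p 0.00405 and the adjusted p 0.193 by edgeR's quasi-likelihood test. The two-sided exact permutation test gave p = 0.0286. In 20 alternative settings the log2 fold change ran from -3.91 to -1.54 and the adjusted p from 0.0510 to 0.9995, so that it was called in none; with cage in the fit it was -3.91 by the titles and -1.54 by the file names. The WT pup that shared the cage of the KO pups was at 1822 CPM by the titles (pup 5) and at 352 CPM by the file names (pup 3). Because the groups do not overlap, any WT pup lies above all KO pups, so this does not separate cage from genotype. Per kilobase of transcript Ttr averaged 102 CPM per kb in KO pups and 730 CPM per kb in WT pups.

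Aqp1, the water channel of the choroid plexus epithelium, was at 3.74, 3.52, 4.62 and 3.67 CPM in KO pups and at 8.08, 11.7, 5.64 and 27.1 CPM in WT pups. The KO pups lie close together below the lowest WT pup, and WT pup 5 is highest (log2 fold change -1.75, SE 0.42; adjusted p = 0.131, edgeR's quasi-likelihood test). It passed in 3 of 20 alternative settings, over which the adjusted p ranged up to 0.9995. One was DESeq2 (adjusted p = 0.00149). The others were cage by the titles in the fit (-2.80, adjusted p = 0.0122) and the KO pups against WT pup 5 alone (-2.80, adjusted p = 0.00733), and both take the WT level of that cage from WT pup 5, the library highest for Aqp1, with the lone pup assumed to vary like the others. With cage by the file names the log2 fold change was -0.54 (adjusted p = 0.9995), and without WT pup 5 it was -1.14 (adjusted p = 0.185). Aqp1 lies at chr6:55336432-55348555 on the plus strand (GRCm38). The 250 bases before its RefSeq start, which lies 133 bases upstream of that position (chr6:55336049-55336298, plus strand, GRCm38.p6), are shown as those of the choroid plexus gene whose p was smallest; capitals mark TTCCCA, from base -135 counted from the RefSeq start.
Aqp1: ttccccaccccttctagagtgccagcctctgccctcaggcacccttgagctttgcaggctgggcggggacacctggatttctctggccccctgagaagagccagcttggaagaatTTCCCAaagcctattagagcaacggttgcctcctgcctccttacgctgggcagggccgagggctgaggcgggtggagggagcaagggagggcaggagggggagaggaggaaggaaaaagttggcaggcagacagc

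Kcne2, a potassium channel subunit of the apical epithelium, was at 0, 0.663, 0 and 0.883 CPM in KO pups and at 1.29, 2.64, 1.22 and 6.42 CPM in WT pups. A count of 0 allows up to 0.144 CPM in KO pup 1 and 0.122 CPM in KO pup 3. The log2 fold change was -2.82 (SE 1.05), and the adjusted p of 0.335 did not pass. Kcne2 reached the filter of 0.322 CPM in 2 KO and 4 WT libraries, Kl likewise, and Folr1 in 3 KO and 4 WT libraries, so their place among the tested genes rests mainly on WT pups. Folr1, the folate receptor that carries folate into cerebrospinal fluid, ranged over 0.0409 to 2.15 CPM in KO pups, with 1 count in KO pup 3, and over 1.31 to 9.53 CPM in WT pups. Kl, the FGF23 co-receptor klotho, ranged over 0 to 1.81 CPM in KO pups and 1.27 to 3.03 CPM in WT pups. Both pairs of ranges overlap, and neither gene passed.

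Clic6, a chloride channel protein of the epithelium, was at 5.42, 6.26, 5.07 and 9.16 CPM in KO pups and at 6.36, 11.9, 6.83 and 25.4 CPM in WT pups (log2 fold change -0.95, SE 0.41; adjusted p = 0.418, edgeR's quasi-likelihood test). With cage in the fit it was -1.96 by the titles and -0.07 by the file names, and without WT pup 5 it was -0.37. Clic6 varied far less than Ttr. The ratio of Ttr to Clic6 counts was 13.8, 19.3, 2.08 and 30.1 in KO pups and 68.1, 72.1, 51.6 and 71.9 in WT pups. The WT ratios lie near one another and all above the KO ratios, while the levels of both genes in WT pups differ by several fold. The ratio of Ttr to Folr1 counts overlapped, at 65.2, 104, 258 and 129 in KO pups and 331, 212, 186 and 191 in WT pups. That overlap rests on KO pup 3, which had 1 count of Folr1. No test was run on either ratio. Over the group, WT pup 5 was the highest library for 5 of 7 genes, where it was highest for 12.2% of all tested genes, and KO pup 3 the lowest for 4 of 7.

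Foxj1, the transcription factor of motile cilia, which ependymal cells share with the choroid plexus, did not go with them. It was at 6.62, 4.27, 1.76 and 17.99 CPM in KO pups and at 6.55, 3.14, 4.12 and 11.6 CPM in WT pups (log2 fold change 0.29, SE 0.61). The highest library was KO pup 4. Of the cilium genes of a longer list, grouped here after their values were seen, Ccdc153, Tmem212, Dynlrb2, Cfap126, Rsph1 and Pifo were also highest in KO pup 4 and Sntn, under the filter, was highest in WT pup 1 at 0.477 CPM; KO pup 4 was the highest library for 11.5% of all tested genes. Ccdc153 reached 9.45 CPM there, against 0.911 to 2.11 CPM in the other KO pups and 1.93 to 3.53 CPM in WT pups.

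**Figure D4:**
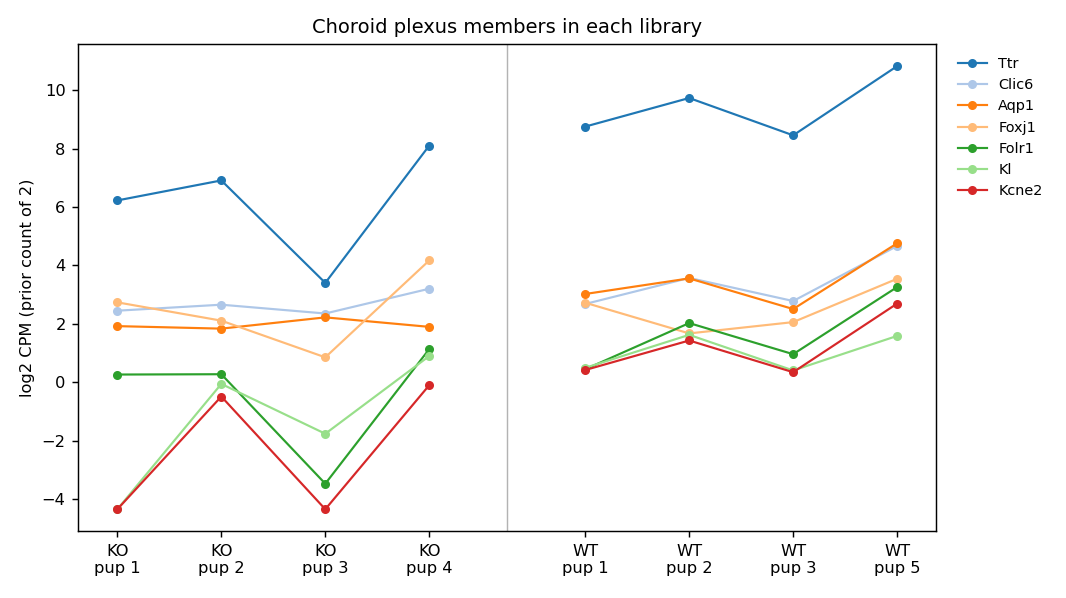
Log2 CPM (with a prior count of 2) of the 7 choroid plexus transcripts in every library, KO pups left and WT pups right, 1 point per pup; lines join the points of a gene within a genotype for reading only, and counts of 0 appear as the lowest points of Kcne2 and Kl. The KO pups lie below all WT pups for Ttr, Aqp1 and Kcne2, and Foxj1 is highest in KO pup 4.

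Further genes of the same cells were read from longer lists of markers. Of 20 other mural genes, all tested, none passed in either direction (median log2 fold change 0.07), and WT pup 2 was the lowest library for 16 of them. Ebf1, a transcription factor that pericytes depend on, averaged 97.9 ± 7.42 CPM in KO pups and 77.2 ± 9.60 CPM in WT pups (SD, n = 4 each); every KO pup was above every WT pup, but the adjusted p was 0.226 by edgeR's quasi-likelihood test. Mcam, the adhesion molecule CD146 that endothelium also carries, had a log2 fold change of -0.23 (SE 0.13). Of 16 other smooth muscle genes 11 were tested and none passed. Smtn, the actin-associated smoothelin, averaged 336.6 ± 33.7 CPM in KO pups and 418.4 ± 15.3 CPM in WT pups (-0.31, SE 0.08; adjusted p = 0.156). Synpo2, which binds actin in contractile cells, had -0.37 (SE 0.14).

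Of 26 other fibroblast and meningeal genes, all tested, none passed, yet 23 had a negative and 3 a positive log2 fold change, with a median of -0.45 beside 0.00 over all genes. KO pup 3 was the lowest library for 12 of them. Lama1, the laminin alpha chain of the pial basement membrane, averaged 135.2 ± 11.7 CPM in KO pups and 198.8 ± 43.1 CPM in WT pups (-0.56, SE 0.14; adjusted p = 0.141, edgeR's quasi-likelihood test). Col15a1, a collagen of vascular basement membranes, averaged 39.2 ± 12.6 CPM in KO pups and 76.2 ± 27.9 CPM in WT pups (-0.96, SE 0.27; adjusted p = 0.201).

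Of 23 other choroid plexus and ependymal genes 21 were tested, and none passed, with 8 positive and 13 negative log2 fold changes and a median of -0.06. The summed level of the list overlapped between genotypes, at 365 to 507 CPM in KO pups and 359 to 598 CPM in WT pups. Enpp2, which is not exclusive to the choroid plexus, made up most of it, at 329 CPM on average in KO pups and 339 CPM in WT pups. Some genes were picked out after their values were seen. Cldn2 (-1.94), Sostdc1 (-2.34) and Tmem72 (-2.39) were among the 13 negative. The 8 positive were the cilium genes Ccdc153 (0.40), Tmem212 (0.58), Dynlrb2 (0.54), Rsph1 (0.48) and Pifo (0.04), with Rarres2 (0.47), Msx1 (0.13) and Slc29a4 (0.12). The cilium gene Cfap126 (-0.06) was negative. All these cilium genes were highest in KO pup 4, as given above. Slc4a5, a bicarbonate carrier of the choroid plexus, was at 0, 0.249, 0.286 and 0.525 CPM in KO pups and at 1.81, 2.89, 1.22 and 12.6 CPM in WT pups (-4.02, SE 0.92; adjusted p = 0.113, edgeR's quasi-likelihood test). Otx2, the homeobox factor that maintains the choroid plexus, was at 0, 1.201, 0.4902 and 0.907 CPM in KO pups and at 1.84, 2.78, 1.87 and 6.73 CPM in WT pups (-2.31, SE 0.81; adjusted p = 0.302). The KO pups lie below all WT pups for both, and WT pup 5 is highest. Slc4a5 lay under the filter of 0.322 CPM in KO pups 1, 2 and 3. Its place among the tested genes therefore rests mainly on WT pups, as for Kcne2. The filter does not change its level, but a gene kept mainly through WT pups is likely to be lower in KO pups. Otx2 shares 168 exon bases with Gm49154 on the same strand.

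Endothelial signals to mural cells and their receptors made up a list of 20 genes, all tested, and none passed (7 positive, 13 negative; median -0.13). Ret, a receptor tyrosine kinase, averaged 78.9 ± 12.8 CPM in KO pups and 109.6 ± 9.46 CPM in WT pups (-0.47, SE 0.12; adjusted p = 0.135, edgeR's quasi-likelihood test). Edn1, the vasoconstrictor peptide endothelin-1, averaged 184.3 ± 16.7 CPM in KO pups and 270.5 ± 64.9 CPM in WT pups (-0.55, SE 0.14; adjusted p = 0.156). Pdgfb, the ligand of PDGFRB, was picked out after its values were seen. It averaged 452.1 ± 12.1 CPM in KO pups and 426.1 ± 35.5 CPM in WT pups (0.09, SE 0.07). WT pup 2, the library lowest in pericyte genes, was also the lowest of the 8 for Pdgfb, at 379 CPM; its part in the pericyte values was not tested.

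Markers of other cells were summed in the same way; 10 of 10 microglia, 6 of 7 blood, 9 of 9 astrocyte, 7 of 8 oligodendrocyte and 5 of 9 neuron markers passed the filter. Microglia markers, led by Csf1r, were at 569 to 1546 CPM in KO pups and at 591 to 984 CPM in WT pups. Blood cell markers, led by Hbb-bs, were at 571 to 1002 CPM in KO pups and at 523 to 1631 CPM in WT pups. Astrocyte markers, led by Gja1, were at 318 to 431 CPM in KO pups and at 329 to 395 CPM in WT pups. Gja1 carried that sum (254.7 CPM on average in KO pups and 299.04 CPM in WT pups), whereas 7 of the 9 astrocyte markers had a positive log2 fold change, with a median of 0.90 beside 0.00 over all genes; 6 of the 9 had an unadjusted p under 0.05 and none passed. Gfap averaged 38.9 CPM in KO pups and 14.6 CPM in WT pups, and Aqp4 13.5 CPM in KO pups and 6.19 CPM in WT pups. Oligodendrocyte markers, led by Mbp, were at 91.5 to 173 CPM in KO pups and at 74.6 to 170.2 CPM in WT pups, and neuron markers, led by Stmn2, at 20.4 to 26.2 CPM in KO pups and at 20.9 to 29.1 CPM in WT pups. The groups overlap in all 5 sums. They overlap too in the sum of the longer choroid plexus and ependymal list, most of which is Enpp2 (log2 fold change -0.04). They do not overlap in the sum of the 7 choroid plexus members, most of which is Ttr in every library but KO pup 3. Without Ttr the log2 ratio of that sum was -1.03, against -2.69 with it. Of the other members, Aqp1 and Kcne2 did not overlap between the groups, while Folr1, Kl, Clic6 and Foxj1 did. The highest microglia sum was in KO pup 3, the library lowest in the choroid plexus sum, and the highest blood sum in WT pup 5, the library highest in it. The part of other cells in the values of Apod and of the choroid plexus genes was not tested. With all libraries thinned to the smallest total, the log2 fold change was -0.61 for Apod (adjusted p = 0.045, edgeR's quasi-likelihood test), -2.85 for Ttr and -1.65 for Aqp1.

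**Figure D5:**
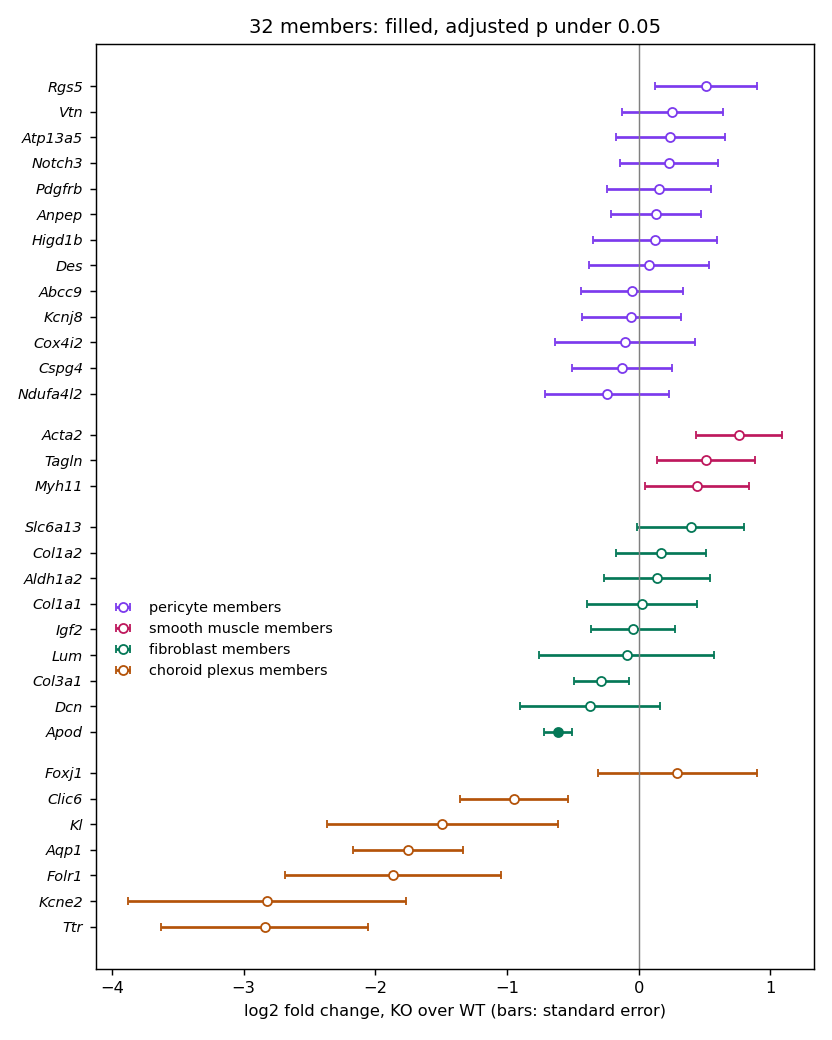
Log2 fold change, KO over WT, of each of the 32 transcripts, with bars of 1 standard error, grouped and coloured by cell type; positive values are higher in KO pups. Apod at -0.61 is the filled point, the only 1 with an adjusted p under 0.05 in edgeR's quasi-likelihood test. The lowest values are choroid plexus genes, with Ttr at -2.84, although Foxj1 is at 0.29.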

How the data were processed

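Messenger RNA of 4 KO and 4 WT pups was measured, with 1 table of whole-number counts per gene deposited by the authors for each library. Stranded poly(A) libraries were read single-end, per the labels' protocols, and STAR, featureCounts and GRCm38 were used, per the submitters' processing notes. Versions, annotation release and strand setting were not given in the sources used here. The 25700 identifiers were named from GENCODE M21, which matched 25664. The kept genes (filterByExpr, minimum count 10, minimum total 15) numbered 14154. They were scaled by TMM and tested by edgeR 4.0.16 (R 4.3.3) with genotype as the only term, and p-values were adjusted by the Benjamini-Hochberg method over all 14154 at a threshold of 0.05. Log2 levels used a prior count of 2. Exact permutation tests covered the 70 assignments of 4 to 4, whose smallest p is 0.0286. Replicates are separate pups.

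The 32 members and all marker lists were chosen with earlier results of these data known. Members with a mean of at least 5 CPM in either genotype, called members and members whose genotypes do not overlap are described in every library, and the others by range. From each longer list the called genes and the 2 of smallest p are named. A count of 0 allows up to 3 counts, which is 0.144 CPM in KO pup 1 and 0.0263 CPM in WT pup 2; this covers counting error only. Pup numbers that the genotypes share did not pair the libraries: the correlations of their deviations were -0.03, 0.03 and -0.07. Alternatives were other scalings and filters, DESeq2 1.42.0, limma 3.58.1 with voom, replicate and cage terms, equal depth and leaving out pups.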

Additional observations from a re-analysis of the deposited data

How the results depend on the processing

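Under 20 alternative settings no member was called higher in KO pups. The number called lower was 1 in the fit described above, 2 in DESeq2 (Apod and Aqp1), and 0 with upper-quartile scaling, with the replicate block and with cage by the file names; it was 0 to 1 when pups were left out in turn. With cage by the titles, and against WT pup 5 alone (the KO pups' cage mate by title), the 1 called was Aqp1 and not Apod. Apod was called in 8 of 20 settings, with log2 fold changes of -0.84 to -0.53 and adjusted p of 1.33e-05 to 0.563; the replicate block, which rests on pup numbers that do not pair the libraries, gave -0.57 (adjusted p = 0.199).

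Over all genes, 39 were called higher in KO pups and 16 lower. The number higher was 147 in DESeq2, 11 with the replicate block, 10 with cage by the titles, 10 with cage by the file names and 10 against WT pup 5 alone, and 25 to 60 when pups were left out in turn. The number lower was 180 in DESeq2, 38 without a filter, 0 with the replicate block, 6 with cage by the titles, 0 with cage by the file names, 26 without KO pup 1 and WT pup 2, and 6 to 27 when pups were left out in turn.

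Rgs5 turned to -0.26 with cage by the file names, and Myh11 to -0.018 with cage by the titles and to -0.017 against WT pup 5 alone; the cause was not tested. The 12 members whose log2 fold change exceeded its standard error changed sign in no other setting, and 19 of the 20 below it changed sign in at least 1. The log2 ratio of the summed fibroblast members was -0.76 against WT pup 5 alone, against -0.29 over all pups, and that of the choroid plexus members was -1.03 without Ttr, against -2.69.

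Kcne2, Kl and Folr1 had 0 or 1 count in some KO libraries, so their levels there are imprecise. With all libraries thinned to the smallest total, their log2 fold changes were -2.91 for Kcne2, -1.57 for Kl and -1.81 for Folr1. In the fit described above they were -2.82, -1.49 and -1.87.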
